A study of Mus musculus with 8 samples.

Results

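The genes described here mark or serve plasmacytoid dendritic cells (pDCs) and were followed in total splenocytes of mice given all-trans retinoic acid (tRA) and of control mice. The set was defined by name as 8 genes, Siglech, Tcf4, Spib, Runx2, Pacsin1, Klk1, Ly6d and Cd300c, and each was found through the GENCODE symbol of its Ensembl identifier on the mouse assembly GRCm38. All 8 were present among the 51826 genes of the count table, and all 8 were among the 16484 genes that passed the filter on low counts.

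The RNA of total splenocytes was sequenced for 8 female Balb/c mice, 4 control and 4 tRA. The tRA mice received 1 mg/kg body weight of tRA by mouth every day from weaning until the spleens were taken at 3 months of age. The study gives vehicle for the control mice in a figure legend, and its methods name canola oil as the vehicle. The treatment text of the sample labels, however, names tRA for all 8 mice, and only the sample titles separate control from treated. No mouse received pristane, the oil used elsewhere in the study to induce lupus, and red blood cells were lysed during cell isolation. The samples are whole cell suspensions, so a level is an average over all splenocytes, and fewer cells of a type and less RNA per cell cannot be told apart.

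As background, pDCs are rare cells of lymphoid organs that sense viral or self nucleic acids in endosomes and answer with large amounts of type I interferon, and they are widely studied in lupus for that reason. Their identity is set by the E protein TCF4 together with the Ets factor SPI-B and the Runt factor RUNX2, and their surface carries the lectin Siglec-H, which signals through the adaptor DAP12. Several of these genes, Spib, Tcf4 and Ly6d among them, are also transcribed in B cells, which are abundant in the spleen.

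The deposited values are raw read counts on genes, with totals between 30919272 counts in control mouse 4 and 37539631 in control mouse 1. Levels are expressed as CPM after TMM normalization of the library sizes, which makes mice of different depth comparable. Fold changes are tRA over control on the log2 scale, with a standard error (SE) and a 95% confidence interval from edgeR. The false discovery rate (FDR) is the p-value of the quasi-likelihood test of edgeR after Benjamini-Hochberg adjustment over all genes tested, with a threshold of 0.1. Each mouse counted as 1 replicate, and no pair within a group agreed within sampling noise (chi-square over degrees of freedom 12.9 to 65.4), as copies of 1 library would.

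The 8 pDC genes did not pass the threshold in the comparison of tRA with control mice. By the quasi-likelihood test of edgeR with Benjamini-Hochberg adjustment, 0 of the 8 had an FDR under 0.1, against 0% of all genes tested, and DESeq2 and limma-voom also called 0 of the 8. Across all genes those tools called 27 and 1 genes, and edgeR 0. At an unadjusted p under 0.05 there was 1 of the 8, Ly6d, against 6.49% of all genes tested. The median log2 fold change was -0.10 for the 8 genes (-0.19 to -0.04 with single mice left out) and 0.00 for all genes. All 8 log2 fold changes were below 0, from -0.34 for Ly6d to -0.02 for Runx2, where 49.7% of all genes were below 0. That of Runx2 was above 0 by limma-voom (0.0010) and with library size alone as scaling (0.0044), and those of Siglech, Spib, Runx2, Pacsin1 and Klk1 turned positive when single mice were left out. In 0 of the 8 genes did the 4 tRA mice all lie below the 4 control mice (1.63% of all genes tested), and in 0 did they all lie above (1.91%).

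Siglech (ENSMUSG00000051504, chr7:55768178-55778925) encodes Siglec-H, the surface lectin by which mouse pDCs are recognized. Its level was 19.9, 26.3, 20.5 and 31.2 CPM in control mice 1 to 4 and 9.90, 28.5, 30.7 and 22.8 CPM in tRA mice 1 to 4. The lowest value was in tRA mouse 1 and the highest in control mouse 4, and the other 6 mice of both groups were interleaved between them. The means were 24.5 ± 5.35 CPM (SD, n = 4) in control and 23.0 ± 9.33 CPM (SD, n = 4) in tRA mice. The log2 fold change was -0.09 (SE 0.288, 95% interval -0.72 to 0.54), with an FDR of 0.967 by the edgeR quasi-likelihood test (Benjamini-Hochberg). It was 0.049 without control mouse 4 and 0.16 without tRA mouse 1, so its sign rested on single mice. The interval spans both a decrease and an increase.

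Cd300c (ENSMUSG00000058728, chr11:114956116-114969157) encodes an activating surface receptor of the CD300 family. It was the least abundant of the 8 genes, at 1.30, 2.80, 2.74 and 3.59 CPM in control mice 1 to 4 and 1.04, 2.14, 3.23 and 1.86 CPM in tRA mice 1 to 4. As for Siglech, tRA mouse 1 was lowest and control mouse 4 highest, and control mouse 1 lay close to tRA mouse 1. Its log2 fold change was -0.32 (SE 0.358, 95% interval -1.12 to 0.47), with an FDR of 0.872 by the edgeR quasi-likelihood test (Benjamini-Hochberg). It stayed below 0 in each alternative fit but ran from -0.63 without tRA mouse 3 to -0.10 without tRA mouse 1. The raw counts behind these levels ranged from 34 in tRA mouse 1 to 119 in tRA mouse 3, the shallowest basis among the 8 genes.

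Ly6d (ENSMUSG00000034634, chr15:74762056-74763620) encodes a GPI-anchored surface protein that marks B-lineage progenitors and lymphoid precursors of pDCs. Its level was 69.96, 47.0, 59.6 and 52.5 CPM in control mice 1 to 4 and 50.4, 45.0, 43.9 and 41.9 CPM in tRA mice 1 to 4. All 4 tRA mice were in the lower part of the range, but tRA mouse 1 was above control mouse 2, so the groups overlapped. The means were 57.3 ± 9.91 CPM (SD, n = 4) and 45.3 ± 3.64 CPM (SD, n = 4). The log2 fold change was -0.34 (SE 0.116, 95% interval -0.60 to -0.08), and its unadjusted p of 0.0142 in edgeR's quasi-likelihood test became an FDR of 0.757 after Benjamini-Hochberg adjustment over all genes tested. A two-sided exact permutation test of the mean log2 CPM gave p = 0.0571, where the smallest p that 4 against 4 mice can give is 0.0286. The fold change therefore did not pass the threshold, although the interval for this gene alone lay below 0. It was negative in each alternative fit, from -0.42 without control mouse 2 to -0.23 without control mouse 1.

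Tcf4 (ENSMUSG00000053477, chr18:69343356-69689079) encodes the E protein that directs pDC development and maintains the identity of mature pDCs. It was read at 109, 108, 95.003 and 108 CPM in control mice 1 to 4 and 87.7, 104, 87.3 and 107 CPM in tRA mice 1 to 4. Control mouse 3 stood below the other control mice, and among the tRA mice 1 and 3 were low while 2 and 4 reached the control level. The log2 fold change was -0.12 (SE 0.0862, 95% interval -0.31 to 0.07), with an FDR of 0.807 by the edgeR quasi-likelihood test (Benjamini-Hochberg). This is the narrowest interval of the 8 genes. With single mice left out, the fold change of Tcf4 ran from -0.17 without tRA mouse 4 to -0.07 without tRA mouse 3.

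Spib (ENSMUSG00000008193, chr7:44525993-44532071) encodes SPI-B, an Ets factor of pDCs and of B cells. Its level was 503.7, 353, 381 and 331 CPM in control mice 1 to 4 and 405, 364, 370.0 and 353 CPM in tRA mice 1 to 4. Control mouse 1 was the highest and control mouse 4 the lowest, so the control group spanned the whole tRA group. This amounted to a log2 fold change of -0.07 (SE 0.121, 95% interval -0.34 to 0.19), with an FDR of 0.915 by the edgeR quasi-likelihood test (Benjamini-Hochberg), and it was 0.072 without control mouse 1.

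Runx2 (ENSMUSG00000039153, chr17:44495987-44814797) encodes a Runt-family factor that pDCs need to mature and to leave the bone marrow. It was found at 28.3, 40.6, 25.1 and 38.6 CPM in control mice 1 to 4 and 27.2, 36.3, 30.4 and 36.8 CPM in tRA mice 1 to 4. In each group, mice 2 and 4 were higher than mice 1 and 3, and the 4 tRA mice lay inside the range of the control mice. For Runx2 this gave a log2 fold change of -0.02 (SE 0.159, 95% interval -0.37 to 0.33), with an FDR of 0.985 by the edgeR quasi-likelihood test (Benjamini-Hochberg).

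Pacsin1 (ENSMUSG00000040276, chr17:27655509-27711482) encodes a cytoplasmic adaptor of membrane trafficking that takes part in the interferon response of pDCs to nucleic acids. Its level was 62.1, 76.5, 53.3 and 68.1 CPM in control mice 1 to 4 and 54.0, 70.2, 62.3 and 62.0 CPM in tRA mice 1 to 4. Control mouse 3 and tRA mouse 1 were low, control mouse 2 and tRA mouse 2 were high, and the groups overlapped. The log2 fold change was -0.06 (SE 0.113, 95% interval -0.31 to 0.18), with an FDR of 0.920 by the edgeR quasi-likelihood test (Benjamini-Hochberg), and it was 0.022 without control mouse 2.

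Klk1 (ENSMUSG00000063903, chr7:44225360-44229618) encodes tissue kallikrein, a secreted serine protease that releases kinins. It was present at 8.55, 12.3, 9.74 and 17.1 CPM in control mice 1 to 4 and 4.15, 13.5, 14.2 and 10.2 CPM in tRA mice 1 to 4. The order of the 8 mice was that of Siglech in every position, from tRA mouse 1 at the bottom to control mouse 4 at the top. A log2 fold change of -0.18 (SE 0.333, 95% interval -0.91 to 0.56) was fitted, with an FDR of 0.925 by the edgeR quasi-likelihood test (Benjamini-Hochberg). Without control mouse 4 it was 0.047, and without tRA mouse 1 it was 0.087.

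**Figure D1:**
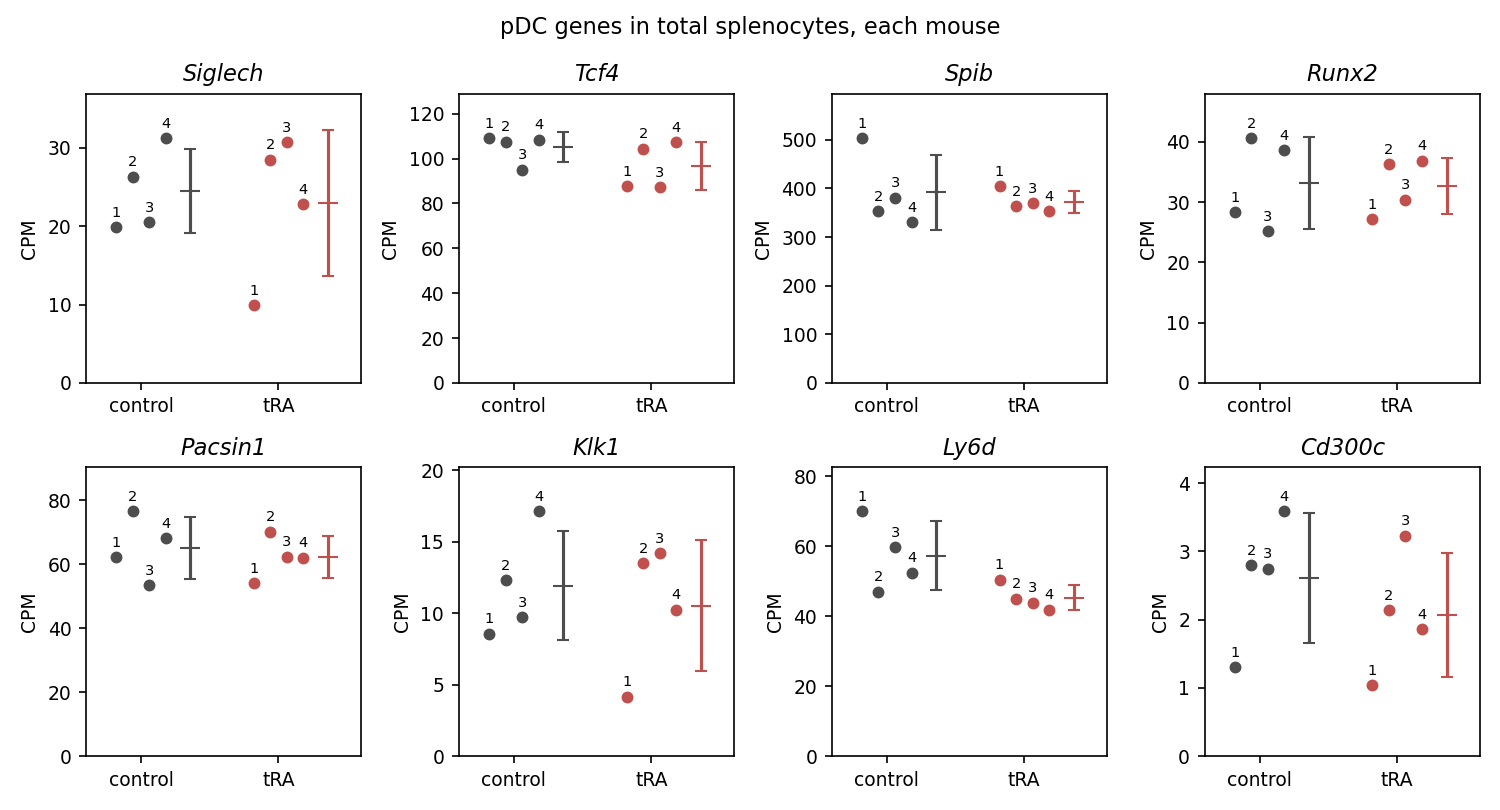
Level of each of the 8 pDC genes in CPM (vertical axes, from 0) in the 4 control and the 4 tRA mice. Points are single mice labelled with the replicate number, and the bars beside them are the mean ± SD of the group. The groups overlap in all 8 panels, and tRA mouse 1 is the lowest mouse for Siglech, Klk1 and Cd300c.

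The 8 genes differed in how much they varied between mice of the same group. On the log2 scale the SD within groups was 0.57 for Siglech, 0.66 for Klk1 and 0.64 for Cd300c, and 91.2%, 94.3% and 93.7% of all genes tested had a smaller SD. Runx2 followed with 0.28, with 66% of genes below it. Spib (0.20), Ly6d (0.19) and Pacsin1 (0.19) were close to the median of all genes, 0.19, and Tcf4 was lower at 0.13. The highest mouse exceeded the lowest by 3.16-fold for Siglech, 4.12-fold for Klk1 and 3.45-fold for Cd300c, and by 1.25-fold for Tcf4. The 3 variable genes thus had intervals of the fold change that reached well to both sides of 0, while for Tcf4, Spib and Pacsin1 the intervals stayed within -0.34 to 0.19.

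Siglech, Klk1 and Cd300c varied together across the mice. Over the 8 mice, Klk1 correlated with Siglech on log2 CPM with a Pearson r of 0.991 (exact permutation p = 2.48e-05, 0.000372 after Benjamini-Hochberg adjustment over 15 relations) and a Spearman rho of 1 (exact permutation p = 4.96e-05, adjusted 0.000744), and both p-values are the smallest that permutations of 8 mice can give. Without the 2 mice farthest from the median of Siglech, tRA mouse 1 and control mouse 4, r was 0.987. Cd300c correlated with Siglech with r = 0.838 (exact permutation p = 0.00501, adjusted 0.0376) and rho = 0.881 (exact permutation p = 0.00724, adjusted 0.0543), and r was 0.616 without those mice, so that relation rested in part on them. Neither the labels nor the count table name a batch, and a correlation within a group of 4 mice is not reported.

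The other members followed Siglech less closely. For Pacsin1 r was 0.679 (exact permutation p = 0.0562, adjusted 0.281) and rho 0.667 (exact permutation p = 0.0831, adjusted 0.288), with r = 0.556 without tRA mouse 1 and control mouse 4. For Runx2 r was 0.603 (exact permutation p = 0.0857, adjusted 0.321) and rho 0.643 (exact permutation p = 0.0962, adjusted 0.288), with r = 0.505 without those mice. Both values were positive and did not pass the adjustment. Tcf4 gave r = 0.430 (exact permutation p = 0.300, adjusted 0.643) and rho = 0.0476 (exact permutation p = 0.935, adjusted 0.935), and r was -0.42 without those mice, so its relation to Siglech rested on them. Spib gave a negative r of -0.488 (exact permutation p = 0.182, adjusted 0.454) and rho of -0.738 (exact permutation p = 0.0458, adjusted 0.229), with r = -0.596 without those mice. Ly6d gave r = -0.278 (exact permutation p = 0.485, adjusted 0.808) and rho = -0.381 (exact permutation p = 0.360, adjusted 0.751), with r = -0.763 without those mice.

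**Figure D2:**
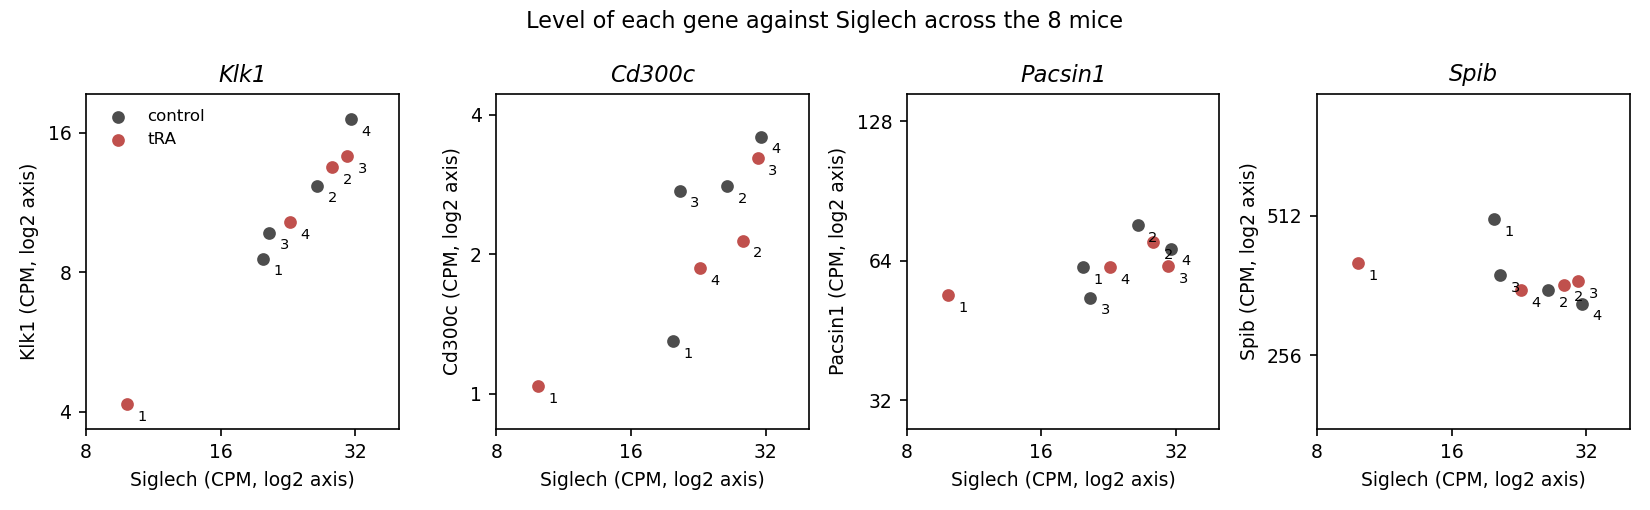
Level of Klk1, Cd300c, Pacsin1 and Spib (vertical axes) against that of Siglech (horizontal axis) in CPM on log2 axes, where each point is a mouse labelled with its replicate number, grey for control and red for tRA. All vertical axes span the same number of doublings. The points for Klk1 lie along a line (r = 0.991), those for Cd300c scatter more (r = 0.838), and those for Spib slope down (r = -0.488).

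To find which genes of the whole table lay closest to Siglech, log2 CPM of each gene was centred on its own mean. The centred values were compared with those of Siglech by the root mean square distance over the 8 mice. This was done among 13577 genes with a mean of at least 1 CPM. The values were not scaled, so the distance reflects the size of the variation as well as its pattern. Klk1 was the nearest of all, at a distance of 0.11. It was followed by Gm16174, annotated as an antisense gene, at 0.11, by the immunoglobulin segment Ighv6-3 at 0.14, and by the mitotic kinesin Kif2c and the glycosyltransferase B3galnt1, both at 0.16 to 0.17. Gm16174 read 0.920, 1.28, 0.838 and 1.2603 CPM in control mice 1 to 4 and 0.428, 1.17, 1.25 and 0.886 CPM in tRA mice 1 to 4, so it was low in the mouse in which Siglech was low. Ighv6-3 read 12.3, 16.5, 13.0 and 21.7 CPM in control mice and 6.84, 15.2, 16.4 and 12.6 CPM in tRA mice, with the same mice at both ends. The use of strand in the counting is not stated and immunoglobulin segments are close copies of each other, so the counts of Gm16174 and Ighv6-3 are uncertain. Among the other members, Cd300c ranked 173, Runx2 887, Pacsin1 951 and Tcf4 2632, whereas Spib and Ly6d ranked 10902 and 10996 of the 13577 genes.

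Per kilobase of merged exons, the levels of the 8 genes over all 8 mice ranked in the order Spib (133 ± 18.7 CPM per kb, SD, n = 8), Ly6d (68.9 ± 12.7), Klk1 (10.4 ± 3.69), Pacsin1 (9.74 ± 1.205), Siglech (7.02 ± 2.10), Runx2 (3.73 ± 0.663), Tcf4 (3.68 ± 0.342) and Cd300c (2.20 ± 0.852). Spib and Ly6d stood clear of the others. Klk1, Pacsin1 and Siglech had overlapping ranges, Runx2 and Tcf4 did not differ beyond their spread, and the highest Cd300c value (3.37 CPM per kb) exceeded the lowest of Tcf4 (3.19). The order below Spib and Ly6d depends on the length used. For Tcf4 the annotated exons add up to 27382 bases while the median coding transcript has 1841.5, and with coding transcript lengths Tcf4 came next after Spib and Ly6d at 54.8 ± 5.08 CPM per kb (SD, n = 8), followed by Pacsin1 (34.2 ± 4.23), Runx2 (18.4 ± 3.27), Siglech (13.2 ± 3.95), Klk1 (13.1 ± 4.65) and Cd300c (3.36 ± 1.31). Cd79a, a B cell receptor subunit, reached 915 CPM per kb of merged exons, above all 8 pDC genes on that scale.

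How far the counts belong to each gene was checked on the annotation. Exons of 7 of the 8 genes share no base with another gene's exons, while 519 of the 8837 exon bases of Runx2 (5.87%) overlap its antisense partner Runx2os1. Without a stated use of strand, reads of Runx2 and Runx2os1 cannot be told apart there, although Runx2os1 itself held 24 counts over the 8 mice. For Klk1, 257 of the 1072 distinct 50-base stretches of its transcripts (24%) also occur in transcripts of 13 other genes, most often those of Klk1b5, Klk1b3 and Klk1b4, close copies in the kallikrein cluster. These 3 copies had 0 counts in all 8 mice, and Klk1b27 was the copy with the most counts, 448 over the 8 mice against the 3001 of Klk1. The Klk1 level is therefore uncertain to the extent that reads matching several copies were dropped or shared. The corresponding share was 5.66% for Runx2, 0.389% for Siglech, 0.314% for Spib, 0.228% for Tcf4 and 0 for Pacsin1, Ly6d and Cd300c.

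As Siglech, Klk1 and Cd300c varied together, the sequences around their starts are shown. RefSeq promoter windows (GRCm38.p6, 250 bases before to 50 bases after the start) were found for 6 of the 8 members, the exceptions being Tcf4 and Ly6d. Both strands were searched for the E-box CANNTG, the motif class bound by E proteins such as TCF4, and its matches are in capitals. Siglech is on the plus strand (chr7:55767934-55768233), Klk1 on the plus strand (chr7:44225110-44225409) and Cd300c on the minus strand (chr11:114960458-114960757), each written from 5′ to 3′. The RefSeq start of Cd300c lies 8650 bases inside the gene as annotated by GENCODE and 90 bases from the nearest start of a coding transcript, and that of Pacsin1 lies 29730 bases inside, so these windows belong to internal starts, and which start was used in the splenocytes was not tested.
Siglech: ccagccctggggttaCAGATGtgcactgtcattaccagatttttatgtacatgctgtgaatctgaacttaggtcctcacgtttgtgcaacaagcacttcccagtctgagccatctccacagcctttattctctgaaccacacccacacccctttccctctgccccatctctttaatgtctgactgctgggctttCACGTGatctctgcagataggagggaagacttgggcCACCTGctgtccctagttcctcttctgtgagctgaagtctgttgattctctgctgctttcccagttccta
Klk1: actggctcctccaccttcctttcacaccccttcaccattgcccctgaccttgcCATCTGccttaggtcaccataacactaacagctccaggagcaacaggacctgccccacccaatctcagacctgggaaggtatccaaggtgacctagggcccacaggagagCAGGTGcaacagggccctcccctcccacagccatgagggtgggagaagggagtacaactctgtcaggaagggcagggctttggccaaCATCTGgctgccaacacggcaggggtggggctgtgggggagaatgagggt
Cd300c: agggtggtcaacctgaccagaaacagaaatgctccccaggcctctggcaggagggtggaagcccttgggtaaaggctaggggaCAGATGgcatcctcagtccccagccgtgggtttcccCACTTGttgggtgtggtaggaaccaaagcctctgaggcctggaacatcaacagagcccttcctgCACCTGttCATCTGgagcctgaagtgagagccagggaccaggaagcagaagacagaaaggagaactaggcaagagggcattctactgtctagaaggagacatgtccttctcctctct

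The windows of Siglech, Klk1 and Cd300c hold 3, 3 and 4 E-boxes. Those of Spib and Runx2 hold 2 each and that of Pacsin1 holds 0. An E-box occurs in 72.3% of all 32851 RefSeq windows, with 1.39 per window on average, and 17.6% of windows hold 3 or more, so 5 of 6 member windows with a match is not far from the background. The Runt core TGTGGT was found in 4 of the 6 windows (Siglech, Runx2, Pacsin1 and Cd300c) and in 16.8% of all windows, and the Ets core GAGGAA in 1 of 6 (Siglech) and in 28.3% of all. The retinoid receptor half-site AGGTCA was found 3 times in the Klk1 window and 1 time in that of Runx2, where 16.3% of all windows hold at least 1 and 0.183% hold 3 or more. Perfect direct repeats of that half-site spaced by 2 or 5 bases were found in 0 of the 6 windows and in 3 of all windows for each spacing. These matches describe the letters of the windows, and binding was not measured here.

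Of 14 other genes of the pDC surface and pDC transcriptome, 0 had an FDR under 0.1, 10 had a log2 fold change below 0 and 4 above, and the median was -0.09 (-0.17 to -0.06 with single mice left out). Mzb1, an endoplasmic reticulum protein of antibody-secreting cells and pDCs, was the only one of the 14 whose groups did not overlap (1.63% of all genes tested were lower in all 4 tRA mice and 1.91% higher), at 87.2, 76.5, 94.4 and 80.6 CPM in control mice 1 to 4 and 74.2, 68.6, 64.4 and 65.1 CPM in tRA mice 1 to 4. Its log2 fold change was -0.31 (SE 0.0803, 95% interval -0.49 to -0.14) with an FDR of 0.757 by the edgeR quasi-likelihood test (Benjamini-Hochberg). Fcrla and Plac8, among the most abundant per length, had log2 fold changes of 0.07 and -0.25, with intervals that included 0. The pDC markers Bst2 and Ccr9, singled out after their values were seen, lay on opposite sides of 0. Bst2 was at 34.7, 29.8, 36.1 and 36.5 CPM in control and 30.7, 26.04, 26.4 and 26.6 CPM in tRA mice (log2 fold change -0.32, SE 0.0887), and Ccr9, a chemokine receptor that retinoic acid is known to induce on lymphocytes, was at 14.3, 16.9, 16.2 and 20.003 CPM in control and 16.3, 22.3, 26.2 and 27.3 CPM in tRA mice (log2 fold change 0.45, SE 0.160). Both had an FDR of 0.757 by the edgeR quasi-likelihood test (Benjamini-Hochberg). By the distance to Siglech used above, 4 of the 14 genes were among the nearest, Cox6a2 (rank 201 of 13577), Lair1 (230), Smim5 (292) and Lag3 (413), also named after their ranks were seen, while Ccr9 ranked 1747 and Bst2 9253. All 7 markers by which pDCs were to be recognized, Siglech, Bst2, Ccr9, Klra17, Tcf4, Cox6a2 and Pacsin1, were detected in every mouse.

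**Figure D3:**
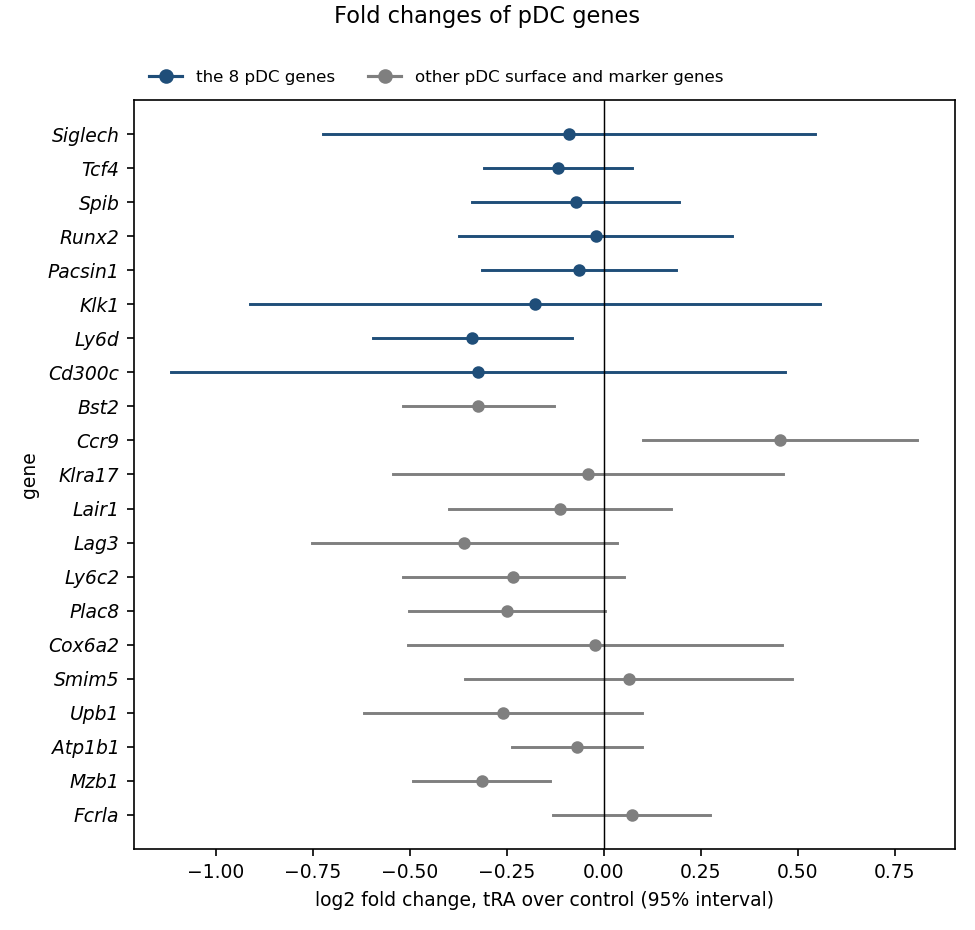
Log2 fold change of tRA over control (horizontal axis) with its 95% confidence interval for the 8 pDC genes (blue) and 13 of the 14 other pDC surface and marker genes (grey), each fitted on 4 control and 4 tRA mice. The intervals of Ly6d, Bst2 and Mzb1 lie below 0 and that of Ccr9 above 0, and none of these genes had an FDR under 0.1.

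Of 16 other regulators of pDC development, Ikzf1 among them, 0 had an FDR under 0.1, 11 were below 0 and 5 above, and the median log2 fold change was -0.02 (-0.06 to 0.00 with single mice left out). The 3 with the highest level per length, Ikzf1, Id2 and Tcf3, had log2 fold changes of 0.02, -0.04 and -0.01. Of 14 genes of nucleic acid sensing, 0 had an FDR under 0.1, 8 were below 0 and 6 above, with a median of -0.02 (-0.05 to 0.02). Unc93b1, the chaperone of endosomal Toll-like receptors, was the only one of the 14 that was lower in all 4 tRA mice (581, 570.2, 561 and 516 CPM) than in all 4 control mice (624, 604, 618 and 583 CPM), as 1.63% of all genes tested were, with a log2 fold change of -0.12 and an FDR of 0.780 by the edgeR quasi-likelihood test (Benjamini-Hochberg). Tyrobp, which encodes the DAP12 adaptor of Siglec-H, and Fcer1g had log2 fold changes of -0.06 and -0.15.

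Transcripts of type I interferons, the main product of activated pDCs, were at or near 0. Of 16 interferon genes in the list, 15 had 0 counts in all 8 mice, which allows up to 0.0812 to 0.0969 CPM per mouse by counting error, and Ifnab had 0 to 4 counts. The Ifna genes are close copies, so reads that match several of them may have been left out of the counts. Their receptor genes Ifnar1 and Ifnar2 had log2 fold changes of 0.06 and 0.03. Of 16 interferon-stimulated genes, 0 had an FDR under 0.1, 9 were below 0 and 7 above, and the median was -0.05, with -0.28 without tRA mouse 1 and 0.11 without tRA mouse 2. Their summed level was 448, 465, 494 and 471 CPM in control mice 1 to 4 and 554, 366, 490.4 and 490.1 CPM in tRA mice 1 to 4, so tRA mouse 1, lowest for Siglech, was the highest and tRA mouse 2 the lowest. Isg15 and Stat2, among the highest of them per length, had log2 fold changes of -0.23 and 0.08.

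Markers of the other spleen cells were read beside the pDC genes, with 0 genes at an FDR under 0.1 in any list by edgeR. DESeq2 called 4 of the 8 neutrophil precursor genes (Camp, Ngp, Ltf and Lcn2) and 2 of the 10 immediate early and heat shock genes (Jun and Egr1), limma-voom called Camp, and edgeR called Camp, Ngp and Ltf without a filter on low counts or without tRA mouse 4, each lower in tRA mice. Over the whole table, DESeq2 called 27 of the 29817 genes it fitted, and how many of these were given an FDR was not counted. Over all genes tested, limma-voom called 1 of 16484. By edgeR, 6 of 29817 were called without a filter and 3 of 16732 without tRA mouse 4. The 10 B cell markers, led by Cd79a, summed to 9085, 8727, 8290.1 and 7838 CPM in control mice 1 to 4 and 8368, 8678, 8688 and 8486 CPM in tRA mice 1 to 4, with 5 below and 5 above 0. Spib, Ly6d and Tcf4 shared with this sum the highest mouse, control mouse 1. The mean log2 CPM of the B cell markers correlated with Spib with r = 0.614 (exact permutation p = 0.119, adjusted 0.356) and rho = 0.333 (exact permutation p = 0.428, adjusted 0.751), and r was -0.728 without control mice 4 and 1, on which the relation rested. With Ly6d r was 0.102 (exact permutation p = 0.803, adjusted 0.891) and rho -0.0714 (exact permutation p = 0.882, adjusted 0.935), and r was -0.736 without those mice. For the other 6 members r lay between -0.382 and 0.200, and the adjusted exact permutation p was 0.663 or higher for r and 0.669 or higher for rho. These low values rested on the same mice, as without control mice 4 and 1 r was 0.923 for Pacsin1, 0.826 for Runx2, 0.754 for Siglech, 0.733 for Klk1, 0.475 for Cd300c and 0.447 for Tcf4, each over 6 mice and without a test.

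Myeloid markers were read mouse by mouse beside the pDC genes. The 9 conventional dendritic cell markers, led by Wdfy4, summed to 708, 737, 654 and 805 CPM in control mice 1 to 4 and 601, 668, 733 and 732 CPM in tRA mice 1 to 4. The 10 monocyte and macrophage markers, led by Csf1r, summed to 487, 665, 532 and 485 CPM and 415, 561, 649 and 561 CPM. Both sums were lowest in tRA mouse 1, and the first was mostly Wdfy4. Among single markers, tRA mouse 1 was the lowest mouse for 2 of the 9 (Wdfy4 and Itgax), 6 of the 10 and 8 of the 8 neutrophil precursor genes, and control mouse 4, highest for Siglech, was the highest mouse for 5, 1 and 2 of them. The dendritic cell and monocyte lists had 5 of 9 and 6 of 10 genes below 0 and medians of -0.07 (-0.14 to 0.07 with single mice left out, highest without control mouse 4) and -0.01 (-0.12 to 0.10, highest without tRA mouse 1). Neutrophil precursor genes (8, led by Ngp) summed to 552, 697, 737 and 632 CPM in control and 251, 314, 344 and 491 CPM in tRA mice, with 8 of 8 below 0, a median of -0.90 (-1.11 to -0.74 with single mice left out) and 5 genes (Camp, Ngp, Ltf, Elane and Prtn3) lower in all 4 tRA mice than in all 4 control mice, as were 1.63% of all genes tested. No marker of these 3 lists was at 0 in any mouse, and their part in the levels of the pDC genes was not tested.

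The 6 plasma cell genes, led by Jchain, summed to 984, 949.8, 949.7 and 1149.5 CPM in control and 870.3, 1003, 746 and 756 CPM in tRA mice, with 3 below and 3 above 0, and 2 of the 6, Sdc1 and Tnfrsf17, were lower in all 4 tRA mice (1.63% of all genes tested). The 10 immediate early and heat shock genes, led by Fos, were all below 0 with a median of -0.55 (-0.91 without tRA mouse 1, -0.38 without tRA mouse 3 and -0.72 by limma-voom), and their sum was lowest in tRA mouse 3 (5655 CPM), a mouse in which Siglech was high, while 4 of the 10 (Fosb, Jun, Egr1 and Hspa1a) were lower in all 4 tRA mice, against 1.63% of all genes tested. T cell markers (led by Lck) had 2 of 8 below 0, NK cell markers (led by Gzma) 4 of 6 and erythroid genes (led by Hbb-bs) 2 of 8, with medians of 0.11 (0.06 to 0.17 with single mice left out), -0.05 (-0.11 to 0.06) and 0.35 (-0.26 to 0.70, lowest without tRA mouse 3). The erythroid sum ranged from 500.4 CPM in control mouse 4 to 3606 CPM in tRA mouse 3, the mice with the highest Siglech of each group. The part of these genes in the levels of the pDC genes was not tested.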

How the data were processed

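Total RNA of splenocytes was sequenced for 4 control and 4 tRA mice. The authors deposited raw read counts for 51826 Ensembl genes. How the reads were aligned and counted is not settled here, since the study's methods name Bowtie2, Tophat2 and HTSeq, whereas the submitters' processing notes name STAR 2.5.2b, featureCounts 1.5.1 and DESeq2 1.26.0. A deposited table of the authors' own comparison was not used. GENCODE M21 (GRCm38) gave symbols for 51633 identifiers and none for 193.

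Genes were filtered by filterByExpr (minimum count 10), normalized by TMM and tested in R 4.3.3 with edgeR 4.0.16, after tests on simulated data. DESeq2 1.42.0, limma-voom (limma 3.58.1), RLE scaling, library size alone, other filters, a replicate block and leaving out each mouse were the alternatives. Figures were drawn with Python 3.11.15 and matplotlib 3.10.9. Spread, likeness and correlations used log2(CPM + 0.05). Exact permutation tests were two-sided.

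The members and the gene lists were chosen with earlier results of these data known. Genes named besides the members were the markers by which pDCs were to be recognized, those whose groups did not overlap, the 3 with the highest level per length in lists of pDC biology, the most abundant one in lists of other cell types, the 5 nearest to Siglech, and Bst2, Ccr9, Cox6a2, Lair1, Smim5, Lag3, Itgax and Lcn2, added after their values were seen, apart from a few that are not reported here. The edgeR p-values set the difference between the groups against the spread between the 4 mice of each group. The exact permutation p-value of the means came from reassigning all mice to the groups. Those of the correlations came from reordering all mice regardless of group.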

Additional observations from a re-analysis of the deposited data

Results flagged for a closer look

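In 6 of the 110 groups of 4 mice examined gene by gene, 1 mouse stood apart from the other 3 beyond Dixon's critical value at the 95% level for the gap over the range, and chance does this in about 5% of groups. Of the 8 pDC genes, Tcf4 was at 95.003 CPM in control mouse 3, while the other control mice were between 108 and 109 CPM. Bst2, a pDC surface marker, was at 30.7 CPM in tRA mouse 1 against 26.04 to 26.6 CPM in the other tRA mice. Lair1, another pDC surface gene, was at 19.97 CPM in tRA mouse 1 against 28.3 to 29.9 CPM in the other tRA mice. Control mouse 3, with the least Tcf4 of its group, had the highest Hspa1a, an inducible heat shock gene, at 942 CPM against 317 to 412 CPM in the other control mice. Camp, a granule gene of neutrophil precursors, was at 42.7 CPM in tRA mouse 4 against 25.2 to 26.9 CPM in the other tRA mice. Lck, a T cell kinase, was at 568 CPM in tRA mouse 1, the mouse with the least Siglech, against 477 to 491 CPM in the other tRA mice.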

How the results depend on the processing

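The count of pDC genes called was 0 in all 15 alternatives, and the median log2 fold change of the 8 genes ran from -0.19 without tRA mouse 2 to -0.04 without tRA mouse 1. Over all genes, edgeR with filterByExpr and TMM gave 0 DEGs, DESeq2 gave 27, limma-voom 1 and edgeR without a filter on low counts 6, and leaving out single mice gave 0 to 3, the highest without tRA mouse 4; the cause was not tested.

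Of 120 refitted log2 fold changes of single pDC genes, 108 kept their sign and 12 did not, and 0 had an FDR under 0.1. That of Runx2 was 0.0010 by limma-voom and 0.0044 with library size alone. With single mice left out it ranged from -0.14 to 0.09 for Runx2, -0.26 to 0.16 for Siglech, -0.15 to 0.07 for Spib, -0.16 to 0.02 for Pacsin1 and -0.36 to 0.09 for Klk1. The changes of sign came without control mouse 4 (Siglech 0.049, Klk1 0.047, Runx2 0.060), without tRA mouse 1 (Siglech 0.16, Klk1 0.087, Runx2 0.058), without control mouse 2 (Runx2 0.091, Pacsin1 0.022), without control mouse 1 (Spib 0.072) and without tRA mouse 3 (Runx2 0.011), where fewer mice entered the fit. Ly6d, Tcf4 and Cd300c were below 0 in every alternative, Cd300c from -0.63 without tRA mouse 3 to -0.10 without tRA mouse 1, with FDRs from 0.255 to 0.999 for Ly6d in edgeR, DESeq2 and limma-voom. Medians of 8 of the 14 other lists changed sign in at least 1 alternative. That of the erythroid genes, 0.35, was -0.26 without tRA mouse 3 and 0.70 without control mouse 3, and that of the interferon-stimulated genes, -0.05, was -0.28 without tRA mouse 1 and 0.11 without tRA mouse 2. Against the SD between mice, 3 of the 210 medians moved by 1 SD or more, those of nucleic acid sensing without control mouse 1 (0.02) or 4 (-0.05) and of plasma cell genes without tRA mouse 1 (-0.18).

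With the replicate number as a block, the count of DEGs was 0, the count of pDC genes called was 0 and their median was -0.15. Deviations of same-numbered mice correlated by 0.154, -0.0229, -0.0143 and 0.257. Mice of different numbers were not compared in this way, so whether the numbers pair the mice cannot be told. The totals of 30919272 counts or more leave Cd300c as the gene most limited by depth.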
